A study of Mus musculus with 70 samples.

Results

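MHC class I presentation genes let a cell show fragments of its own proteins to cytotoxic T cells. The 10 genes described here are H2-K1, H2-D1, H2-Q7 and H2-T23, which encode class I heavy chains, B2m, Tap1, Tapbp, Psmb8, Psmb9 and Nlrc5. They were chosen by name, and each was found in all 5 count tables of the series, among 25806 genes present in at least 1 table.

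H2-K1 and H2-D1 encode the classical heavy chains that carry peptide at the cell surface, and H2-Q7 and H2-T23 encode the non-classical chains Qa-2 and Qa-1. Every such chain pairs with β2-microglobulin, the product of B2m. Peptides are cut by the proteasome, in which Psmb8 and Psmb9 supply inducible catalytic subunits of the immunoproteasome. Tap1 encodes a subunit of the transporter that moves peptides into the endoplasmic reticulum, and Tapbp encodes tapasin, which links that transporter to empty heavy chains. Nlrc5 is a transcriptional activator that works at class I promoters together with factors bound to their SXY module. Interferon is a known inducer of the whole set, and microglia, the resident macrophages of the brain parenchyma, express class I at a low level at rest.

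The series asked what tamoxifen does to microglia of Cx3cr1CreERT2 mice, in which a tamoxifen-activated Cre recombinase is knocked into the Cx3cr1 locus of microglia and other mononuclear phagocytes. The Littman and Jung lines are independently made versions of this allele. All libraries are bulk CEL-Seq2 libraries, which count molecules at the 3′ end of transcripts, each from 500 sorted CD11b+ CD45+ Ly6G- CD206- brain cells. Replicates are not labelled as separate animals, so p-values measure the spread between these libraries only. Littman mice were heterozygous for Cx3cr1CreERT2(Litt), and Cre- mice were Cx3cr1+/+.

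Postnatal libraries came from pups aged 8 or 14 days, which received 0.1 mg tamoxifen on postnatal days 1 and 3 or 0.2 mg on days 5 and 7. The labels do not give the age or schedule per library. The postnatal table held Littman Cre+ with tamoxifen (n = 5), Cre- with tamoxifen (n = 5), Jung with tamoxifen (n = 4) and Jung with oil (n = 5). These Jung pups were heterozygous for Cx3cr1CreERT2(Jung) and for Rosa26YFP. A second table of pups held UC2288, tamoxifen and Cre+ (n = 5), UC2288, tamoxifen and Cre- (n = 3), vehicle, tamoxifen and Cre+ (n = 4), vehicle, oil and Cre+ (n = 4), and vehicle, tamoxifen and Cre- (n = 5). UC2288, given at 100 mg per kg in oil with 2% DMSO, inhibits the function of CDKN1A, a cell cycle inhibitor.

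Adults were 6 to 15 weeks old and received 4 mg tamoxifen in 2 injections, or oil. The adult tables held Littman with tamoxifen (n = 3), Littman with oil (n = 4), Jung with tamoxifen (n = 4) and Jung with oil (n = 4). A table whose titles name BLZ, for BLZ945, an inhibitor of the CSF1 receptor on which microglia depend, held Littman with tamoxifen (n = 4), Littman with oil (n = 3), Jung with tamoxifen (n = 4) and Jung with oil (n = 4). BLZ945 was given at 100 mg per kg for 5 days. For Jung mice the titles and the treatment labels disagree: libraries titled adult are labelled with BLZ945, and libraries titled BLZ are not. The BLZ-titled Jung mice also carried Rosa26YFP. Groups follow the titles here, and whether a given Jung adult received BLZ945 cannot be told from these labels.

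Library totals ran from 116083 counts in the vehicle and UC2288 table to 450461 in the postnatal table. At this depth 1 count is worth 2.22 to 8.61 CPM, counts scaled to a library total of 1000000, so Nlrc5 and H2-Q7 rested on a handful of molecules in many libraries. All 10 microglia markers checked, P2ry12 and Tmem119 among them, had counts in every group, and lymphocyte markers summed to at most 9.31 CPM in any library. Neutrophil markers, which the Ly6G gate should remove, summed to 1169 CPM in postnatal Cre- replicate 2, 2951 CPM in BLZ-titled Littman oil replicate 3, 2531 CPM in BLZ-titled Littman tamoxifen replicate 1 and 682 CPM in UC2288 Cre- replicate 1, against at most 2.29 CPM elsewhere. UC2288 Cre+ replicate 3 went against its group, with microglia markers summing to 17888 CPM, against 8265 to 9104 CPM in the other 4 libraries. Cx3cr1, of which Cre carriers have 1 intact copy, averaged 1406 CPM in postnatal Cre+ libraries and 3905 CPM in Cre- libraries.

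The genes lie on chromosome 17 except for B2m, at chr2:122147686-122153083 on the plus strand, and Nlrc5, at chr8:94434356-94527272 on the plus strand (GRCm38, GENCODE annotation). Within the major histocompatibility complex, Tapbp is at chr17:33915899-33929292 (plus), H2-K1 at chr17:33996017-34000347 (minus), Psmb9 at chr17:34181987-34187764 (minus), Tap1 at chr17:34187553-34197225 (plus) and Psmb8 at chr17:34197721-34201454 (plus). H2-D1 follows at chr17:35262730-35267499 (plus), H2-Q7 at chr17:35439155-35443773 (plus) and H2-T23 at chr17:36029773-36032855 (minus). Tags from near-identical heavy chains can be counted to the wrong gene. Of the 81-nt windows in the last 500 bases of the transcripts, 0.91% of those of H2-K1, 0% of those of H2-D1, 6.33% of those of H2-Q7 and 17.38% of those of H2-T23 also occur in another gene, so H2-Q7 and H2-T23 are the less certain of the 4. H2-T23 shared most with Rab33b (11.19%), which is not on the heavy chain list, and H2-Q7 with H2-Q5.

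Promoters of 9 of the 10 genes were found in the RefSeq table (GRCm38.p6), and Nlrc5 is only named. The 3 sequences below are shown because they carry an arrangement of X2 and Y box cores that H2-K1, H2-D1, H2-Q7 and B2m share. Each runs from 151 to 2 bases before the gene start, 5′ to 3′ on the gene's strand, at chr17:34000349-34000498 (minus), chr17:35439004-35439153 (plus) and chr2:122147536-122147685 (plus). Capitals mark matches to GGG, any 4 bases and CCC (NF-kB), TGACG (core of the X2 box), CCAAT (core of the Y box) and GAAA, any 2 bases and GAAA (interferon response), each searched on both strands, with adjoining or overlapping NF-kB matches merged.
H2-K1: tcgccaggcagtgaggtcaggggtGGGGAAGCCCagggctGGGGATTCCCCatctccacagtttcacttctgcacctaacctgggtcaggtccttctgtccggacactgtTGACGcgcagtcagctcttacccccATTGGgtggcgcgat
H2-Q7: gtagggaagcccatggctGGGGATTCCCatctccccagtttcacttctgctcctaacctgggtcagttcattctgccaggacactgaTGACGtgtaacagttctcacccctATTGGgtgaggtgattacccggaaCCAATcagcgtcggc
B2m: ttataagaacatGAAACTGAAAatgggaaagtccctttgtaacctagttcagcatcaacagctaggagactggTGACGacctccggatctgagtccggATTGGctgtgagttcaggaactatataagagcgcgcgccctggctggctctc

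Over the 250 bases upstream of each start, TGACG was present in 6 of 9 member windows and in 17.8% of all 32851 windows, and CCAAT was present in 8 of 9 and in 33.8%. An NF-kB match was present in H2-K1, H2-D1 and H2-Q7, and in 10.3% of all windows. The interferon motif was present in B2m and H2-T23, and in 2.98% of all windows. Only that exact string was searched, so a window without a match may still hold a variant form of the element. TGACG followed after 19 or 20 bases by ATTGG occurred upstream of H2-K1, H2-D1, H2-Q7 and B2m and in 42 of all 32851 windows, or 0.128%. That spacing was written down after the sequences had been seen. Such matches describe letters and not bound factors.

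**Figure D1:**
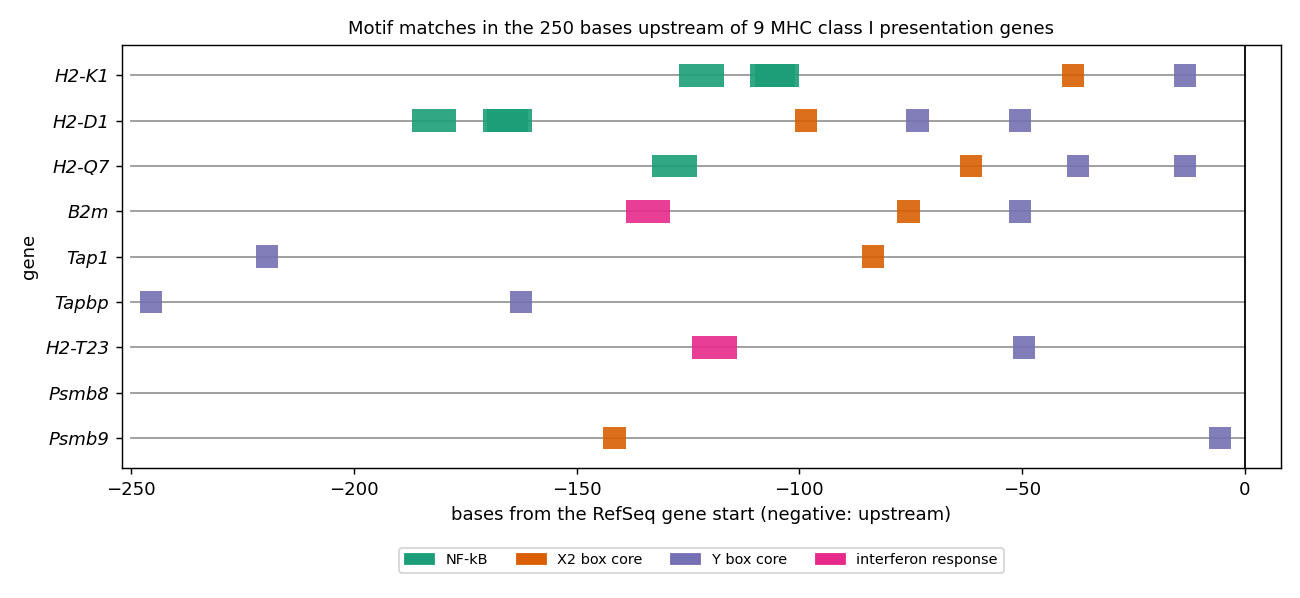
Motif matches upstream of 9 MHC class I presentation genes. The horizontal axis gives bases from the RefSeq gene start, with upstream negative, each line is 1 gene, and coloured boxes are matches to the 4 motifs. In H2-K1, H2-D1, H2-Q7 and B2m an X2 box core is followed downstream by a Y box core at nearly the same distance.

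After neonatal tamoxifen, microglia of Littman Cre+ pups held more mRNA for the classical heavy chains, β2-microglobulin, Qa-2 and the peptide transporter than microglia of Cre- pups. H2-K1 and H2-D1 were more than 3-fold higher in mean CPM, B2m rose by less than 1 on the log2 scale, and H2-Q7 was close to absent without Cre. Tapbp and H2-T23 did not pass the test. Of 9 members tested, 5 were called higher and 0 lower, whereas 4.56% of all 7076 tested genes were called higher. The 5 were H2-K1, H2-D1, B2m, Tap1 and H2-Q7, of which H2-Q7 passed a filter on low counts only through the Cre+ libraries. A gene is called here when its adjusted p from edgeR's quasi-likelihood test, with Benjamini-Hochberg adjustment over all tested genes, is below 0.05. The set has no Littman oil group, so effects of the knock-in allele, of Cre and of tamoxifen acting on Cre cannot be told apart.

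H2-K1 measured 1167, 984, 1081, 906 and 1006 CPM in the 5 Cre+ libraries, against 287, 359, 297, 279 and 258 CPM in the 5 Cre- libraries. Every Cre+ library lay above every Cre- library, with a log2 fold change of 1.84 ± 0.11 (SE, adjusted p = 3.11e-18). H2-D1 measured 1039.8, 966, 938, 1188 and 1212 CPM in Cre+ and 298, 321, 329.7, 274 and 386 CPM in Cre- libraries, again without overlap (1.78 ± 0.10, adjusted p = 2.93e-18). Both classical heavy chains thus changed by similar amounts, and their within-library ratio stayed between 0.76 and 1.15 in Cre+ and between 0.67 and 1.12 in Cre- libraries. B2m measured 6390.4, 5818, 6259.7, 5934 and 5947 CPM in Cre+ and 3544, 3555, 3361, 3136 and 3279 CPM in Cre- libraries (0.89 ± 0.07, adjusted p = 1.28e-13). The light chain groups did not overlap either.

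H2-Q7 measured 54.4, 55.9, 31.4, 48.8 and 59.6 CPM in Cre+ libraries, against 0, 0, 2.56, 0 and 0 CPM in Cre- libraries. These values stand for 106 counts in Cre+ against 1 count in Cre-, a pooled ratio of 94.1 with an exact 95% interval of 16.5 to 3753, which covers counting error only (adjusted p = 1.13e-10). H2-Q7 passed the low-count filter only through these Cre+ libraries, so its calls among the postnatal groups are no separate support. Nlrc5 was too low for the test, with 6.80, 13.3, 16.9, 8.88 and 18.3 CPM in Cre+ and 0, 2.55, 0, 0 and 2.93 CPM in Cre- libraries. Its pooled ratio of 27 to 2 counts was 12.0 (3.01 to 104), and all 5 Cre+ libraries lay above all 5 Cre- libraries.

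Among the peptide-supply genes, Tap1 measured 92.9, 71.8, 91.9, 84.4 and 101 CPM in Cre+ and 58.0, 58.6, 89.5, 37.3 and 32.2 CPM in Cre- libraries. Here the groups overlapped, since Cre- replicate 3 reached the Cre+ range, and the log2 fold change was 0.71 ± 0.19 (adjusted p = 0.0133). The call was lost without Cre- replicate 4 (adjusted p = 0.0652) or replicate 5 (0.063), the 2 lowest Cre- libraries. Psmb8 averaged 98.3 ± 25.3 CPM in Cre+ and 74.4 ± 14.2 CPM in Cre- libraries (SD), with a log2 fold change of 0.46 ± 0.19 that did not pass (adjusted p = 0.156). Without Cre+ replicate 2 it did (0.0458). Psmb9 averaged 45.0 ± 9.61 CPM in Cre+ and 32.8 ± 8.95 CPM in Cre- libraries (0.50 ± 0.23, adjusted p = 0.224).

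Tapbp averaged 253 ± 29.9 CPM in Cre+ and 243 ± 21.9 CPM in Cre- libraries, and the 95% interval of its log2 fold change ran from -0.13 to 0.34. H2-T23, the Qa-1 chain, averaged 91.4 ± 39.1 CPM in Cre+ and 110.1 ± 13.9 CPM in Cre- libraries, with an interval of -0.65 to 0.18. One Cre+ library, replicate 3, had only 29.0 CPM of it.

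Microglia markers summed to 17329.6 to 22431 CPM in Cre+ and 25278 to 28742 CPM in Cre- libraries. Of the 10, 1 was called higher and 5 lower in Cre+. The 10 include Cx3cr1, of which Cre carriers have 1 intact copy and whose values are given above. Monocyte markers summed to 26.6 to 80.2 CPM in Cre+ and 5.11 to 50.9 CPM in Cre- libraries. Plac8, the only one of 6 monocyte markers tested, rose by 2.30 ± 0.44, and 3 of the 6, Ly6c2 among them, were at 0 in every Cre+ library. Plac8 passed the low-count filter only through Littman Cre+ libraries, so its rise is no separate support. Border macrophage markers summed to 99.2 to 268 CPM in Cre+ and 87.8 to 123 CPM in Cre- libraries, with overlap. Mrc1, the 1 of 8 tested, encodes the CD206 that the sort gate excludes and was higher in Cre+ (0.60 ± 0.18, adjusted p = 0.0297), while Cd163 and Lyve1 were at 0 in both groups. Mitochondrially encoded mRNA averaged 5.59% of counts in Cre+ and 4.49% in Cre- libraries. In bulk libraries, more transcript per cell and more cells of a class I-rich type cannot be told apart, and the part of these markers in the result was not tested.

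**Figure D2:**
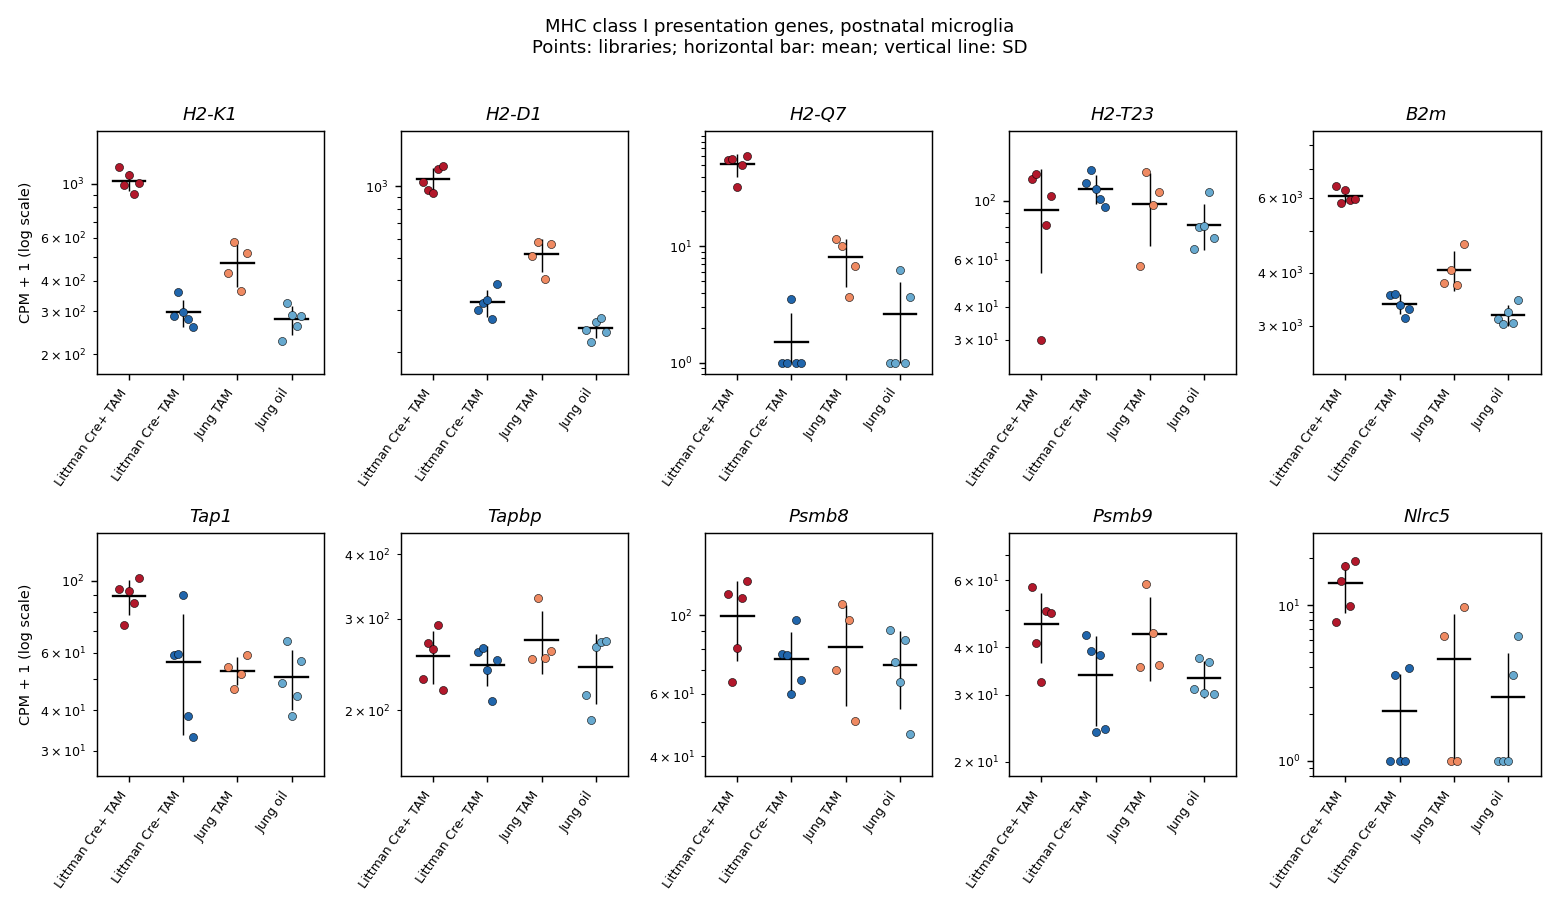
The 10 genes in postnatal microglia, 1 panel per gene. The vertical axis is CPM + 1 on a log scale, points are libraries, horizontal bars means and vertical lines SD, and groups run from Littman Cre+ with tamoxifen (n = 5) and Cre- with tamoxifen (n = 5) to Jung with tamoxifen (n = 4) and Jung with oil (n = 5). H2-K1, H2-D1 and B2m are highest in Littman Cre+ and intermediate in Jung with tamoxifen.

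In Jung pups the comparison is tamoxifen against oil within Cre carriers. The same 3 surface components, H2-K1, H2-D1 and B2m, were called higher with tamoxifen, 3 of 9 members tested, where only 6 of 7076 genes, or 0.0848%, were called higher. The transporter, tapasin and immunoproteasome genes did not pass.

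H2-K1 measured 431, 574, 363 and 517 CPM in the 4 tamoxifen libraries, against 225, 325, 290.1, 259.8 and 287 CPM in the 5 oil libraries. No oil library reached the lowest tamoxifen value (0.76 ± 0.12, adjusted p = 4.49e-04). H2-D1 measured 505, 583, 405 and 569 CPM with tamoxifen and 245, 219, 266, 278 and 242 CPM with oil (1.04 ± 0.12, adjusted p = 1.39e-07). B2m measured 3771, 4048, 3736 and 4671 CPM with tamoxifen and 3118, 3035, 3236, 3041 and 3457 CPM with oil (0.35 ± 0.07, adjusted p = 0.0371). Its groups did not overlap, but the call was lost upon removal of any of 6 libraries, 1 at a time, with adjusted p up to 0.521 without tamoxifen replicate 4, and it was 0.0501 without the postnatal library that held neutrophil markers.

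H2-Q7 was low in Jung pups, at 10.6, 9.11, 2.67 and 5.81 CPM with tamoxifen and 0, 0, 5.32, 0 and 2.66 CPM with oil, and did not pass the test (10 against 3 counts, ratio 4.45, 1.15 to 25.2, adjusted p = 0.834). Tap1 averaged 51.9 ± 5.23 CPM with tamoxifen and 49.7 ± 10.7 CPM with oil, and the interval of its log2 fold change was -0.41 to 0.56. For Tapbp, H2-T23, Psmb8 and Psmb9 the log2 fold changes lay between 0.17 and 0.39, with adjusted p of at least 0.929. Microglia markers summed to 23714 to 26618 CPM with tamoxifen and 26365 to 27589 CPM with oil, with 0 of 10 called.

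The difference between both contrasts was tested in the same fit. It takes the Littman Cre+ minus Cre- change and subtracts the Jung tamoxifen minus oil change, so that the contrasts differ in their baseline as well as in the line. H2-K1 differed by 1.07 ± 0.17 on the log2 scale (adjusted p = 1.68e-04), H2-D1 by 0.74 ± 0.16 (0.0116) and B2m by 0.54 ± 0.10 (0.00357). All 3 were larger in the Littman contrast, and 0.254% of tested genes were called in that direction. The H2-D1 call was lost without Jung tamoxifen replicate 3 (adjusted p = 0.0623).

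Set side by side after tamoxifen, Littman Cre+ pups exceeded Jung pups in 5 of 9 members tested, where 3.82% of genes were called higher. Of the 5, H2-Q7 passed the low-count filter only through the Littman Cre+ libraries, so its call is no separate support. H2-K1 was higher by 1.18 ± 0.11, H2-D1 by 1.10 ± 0.11, B2m by 0.63 ± 0.08, Tap1 by 0.81 ± 0.21 and H2-Q7 by 2.82 ± 0.41 on the log2 scale, with adjusted p from 9.93e-11 to 0.0118. Every one of the 5 Littman libraries was above every Jung library for these 5 genes, and the share of all genes that separate likewise was not counted. Tapbp and H2-T23 differed by -0.05 ± 0.12 and -0.02 ± 0.23. Microglia markers summed to 17329.6 to 22431 CPM in Littman Cre+ and 23714 to 26618 CPM in Jung tamoxifen libraries, and of the 10, 1 was called higher and 6 lower in Littman. Monocyte markers summed to 26.6 to 80.2 CPM in Littman and 8.00 to 20.3 CPM in Jung libraries, with Plac8 higher (2.49 ± 0.49). That gene passed the low-count filter only through the Littman Cre+ libraries. Border macrophage markers summed to 99.2 to 268 CPM in Littman and 63.8 to 109 CPM in Jung libraries, with Mrc1 higher (0.83 ± 0.20). The part of these markers in the difference between the lines was not tested. Rosa26YFP was carried by the Jung pups only, so the reporter and the line cannot be told apart.

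Jung oil pups and Littman Cre- pups, the baselines of these contrasts, differed in 0 of 9 members, where 0.791% of tested genes were called in either direction. H2-Q7 had 3 counts in Jung oil and 1 in Cre- libraries, too few for a call to be likely. H2-D1 averaged 249.8 ± 22.9 CPM in Jung oil and 322 ± 42.1 CPM in Cre- libraries, the clearest gap (-0.37 ± 0.12, unadjusted p = 0.00335, adjusted p = 0.126). H2-T23 was the other member with an unadjusted p below 0.05, and DESeq2 and limma-voom also called 0 members.

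In the second set of Littman pups all groups received vehicle or UC2288 besides tamoxifen or oil, and it holds the Cre+ oil group that the first set lacks. With vehicle and tamoxifen, Cre+ microglia held several times the heavy chain mRNA of Cre+ oil or Cre- microglia. Against Cre- libraries, 9 of 10 members were called higher, with Tapbp the exception, where 14.3% of 4953 tested genes were called higher. Against Cre+ libraries with oil, 9 of 10 were called higher, with Psmb8 the exception, where 16.1% were called higher. Both comparisons use the same 4 Cre+ tamoxifen libraries and are therefore not independent. Each count includes H2-Q7, Nlrc5 and Psmb9, which passed the low-count filter only through Cre+ tamoxifen groups, so their calls are no separate support. Apart from them, H2-K1, H2-D1, B2m, Tap1 and H2-T23 were called in both comparisons, Psmb8 against Cre- and Tapbp against oil.

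H2-K1 measured 1563, 2382, 1653 and 1455 CPM in the 4 Cre+ tamoxifen libraries, against 192, 246, 199 and 194 CPM in the 4 Cre+ oil libraries and 174, 201, 193, 231 and 200.5 CPM in the 5 Cre- tamoxifen libraries. The lowest Cre+ tamoxifen library was far above the highest of the 9 others. Its log2 fold change was 2.96 ± 0.34 against oil (adjusted p = 3.95e-08) and 2.95 ± 0.31 against Cre- (4.11e-09). H2-D1 measured 1311, 1981, 1379 and 1262 CPM with Cre and tamoxifen, 243, 304, 239.7 and 229 CPM with Cre and oil, and 300.2, 257, 202, 271 and 186 CPM without Cre. It rose by 2.42 ± 0.29 against oil and 2.43 ± 0.27 against Cre- (adjusted p = 1.03e-07 and 1.12e-08). The H2-K1 to H2-D1 ratio within a library was 1.15 to 1.20 with Cre and tamoxifen, 0.79 to 0.85 with Cre and oil, and 0.58 to 1.08 without Cre, given here as a description.

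H2-Q7 measured 163, 284, 162 and 110.3 CPM with Cre and tamoxifen, 5.06, 14.5, 0 and 0 CPM with Cre and oil, and 0 in all 5 Cre- libraries. It was at least 60.7-fold higher than in Cre-, where 3 counts over the group, or 3.03 CPM, were assumed, and its pooled ratio to oil was 41.4 (95% interval 13.9 to 203). Nlrc5 measured 63.0, 63.0, 86.4 and 48.3 CPM with Cre and tamoxifen, 0 in all 4 Cre+ oil libraries, and 6.00, 0, 8.96, 0 and 0 CPM without Cre. This activator of class I genes was at least 15.3-fold higher than with oil, and its ratio to Cre- was 22.4 (7.32 to 112). Adjusted p for both genes ran from 1.79e-07 to 2.14e-05. Both passed the low-count filter only through Cre+ tamoxifen groups, under vehicle or UC2288. Their calls here and under UC2288 are therefore no separate support. A count of 3 or fewer in the lower group leaves the size of these changes poorly fixed.

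B2m measured 11083, 11422, 8063 and 7335 CPM with Cre and tamoxifen, 3925, 4327, 4564 and 4705 CPM with Cre and oil, and 4197, 3702, 3503, 3553 and 4200.5 CPM without Cre. The light chain rose by 0.98 ± 0.23 against oil and 1.12 ± 0.22 against Cre- (adjusted p = 0.00157 and 2.56e-04), without overlap of the groups. Tap1 measured 181, 221, 176 and 199.9 CPM with Cre and tamoxifen, 20.2, 36.2, 35.7 and 62.4 CPM with Cre and oil, and 66.0, 37.4, 31.4, 57.7 and 28.0 CPM without Cre. The transporter subunit rose by 2.23 ± 0.35 against oil and 1.98 ± 0.31 against Cre- (adjusted p = 1.31e-05 and 1.17e-05).

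H2-T23 measured 189, 347, 209 and 152 CPM with Cre and tamoxifen, 101, 101, 71.4 and 97.0 CPM with Cre and oil, and 60.0, 37.4, 53.8, 34.6 and 74.6 CPM without Cre. The Qa-1 chain rose by 1.16 ± 0.29 against oil and 1.90 ± 0.28 against Cre- (adjusted p = 0.00226 and 4.20e-06). In the first set of pups the same chain had not passed the test.

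Of the immunoproteasome subunits, Psmb9 averaged 86.3 ± 11.7 CPM with Cre and tamoxifen, 37.0 ± 12.3 CPM with Cre and oil, and 36.4 ± 11.6 CPM without Cre. It rose by 1.14 ± 0.37 against oil (adjusted p = 0.0174, but 0.0852 without oil replicate 1) and 1.10 ± 0.33 against Cre- (0.0134). Like H2-Q7 and Nlrc5, Psmb9 passed the low-count filter only through Cre+ tamoxifen groups, under vehicle or UC2288. Its calls here and under UC2288 are therefore no separate support. Psmb8 averaged 193 ± 53.7 CPM with Cre and tamoxifen, 118 ± 14.9 CPM with Cre and oil, and 100.3 ± 34.4 CPM without Cre. It passed against Cre- (0.74 ± 0.26, adjusted p = 0.0301) but not against oil (0.58 ± 0.28, 0.103). The Psmb8 call against Cre- was lost on leaving out any of 5 single libraries, Cre+ replicate 2 or 3 or Cre- replicate 1, 3 or 4, with adjusted p from 0.0556 to 0.109.

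Tapbp averaged 234 ± 35.2 CPM with Cre and tamoxifen, 128 ± 46.8 CPM with Cre and oil, and 151 ± 40.0 CPM without Cre. Tapasin passed against oil (0.73 ± 0.26, adjusted p = 0.0325) and missed against Cre- (0.47 ± 0.24, 0.143). The call against oil was lost without oil replicate 2 or 3 or tamoxifen replicate 1 or 2 (adjusted p from 0.0657 to 0.145). Scaling by library totals in place of TMM, which shifts the median of all genes by 0.22 against Cre- and 0.15 against oil, brought Tapbp past the threshold against Cre- (adjusted p = 0.039) and Psmb8 past it against oil (0.0286).

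Cre+ oil and Cre- tamoxifen libraries differ both in the allele and in tamoxifen. Between them 0 of 10 members and 0% of genes were called, by edgeR, and DESeq2 and limma-voom called 0 members. H2-Q7, with 3 counts in Cre+ oil and 0 in Cre- libraries, and Nlrc5, with 0 and 3, were too low for a call to be likely. H2-K1 averaged 208 ± 25.9 CPM in Cre+ oil and 199.8 ± 20.4 CPM in Cre- libraries, with an interval of -0.70 to 0.68 for the log2 fold change. H2-T23 was the 1 member with an unadjusted p below 0.05, at 92.8 ± 14.4 CPM in Cre+ oil and 52.1 ± 16.5 CPM in Cre- libraries (0.74 ± 0.33, adjusted p = 0.806).

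Other features of the libraries moved with these groups. Microglia markers summed to 7901 to 8784 CPM with Cre and tamoxifen, 16008 to 19880.3 CPM with Cre and oil, and 14877 to 16638 CPM without Cre. That sum includes Cx3cr1, of which both Cre+ groups have 1 intact copy. Monocyte markers summed to 96.5 to 278 CPM with Cre and tamoxifen, 0 to 29.0 CPM with Cre and oil, and 4.48 to 28.1 CPM without Cre, of which Plac8 was called higher and 3 of 6 markers were at 0 in all Cre+ tamoxifen libraries. Plac8 passed the low-count filter only through Cre+ tamoxifen groups, under vehicle or UC2288, so its call is no separate support. Border macrophage markers ran the other way, at 82.7 to 189 CPM with Cre and tamoxifen, 291 to 357 CPM with Cre and oil, and 267 to 462 CPM without Cre. Astrocyte, oligodendrocyte and neuron markers summed to 129.6 to 169 CPM with Cre and tamoxifen, 51.0 to 111 CPM with Cre and oil, and 37.4 to 80.8 CPM without Cre, with 1 of 1 tested called higher in both comparisons and Gfap at 0 in all 3 groups. That call speaks for 1 gene only, and which groups brought it past the low-count filter was not checked. Mitochondrially encoded mRNA averaged 8.78% of counts with Cre and tamoxifen, 10.2% with Cre and oil, and 13.8% without Cre. The part of any of these in the class I changes was not tested. Lymphocyte markers summed to at most 6.93 CPM in these groups.

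**Figure D3:**
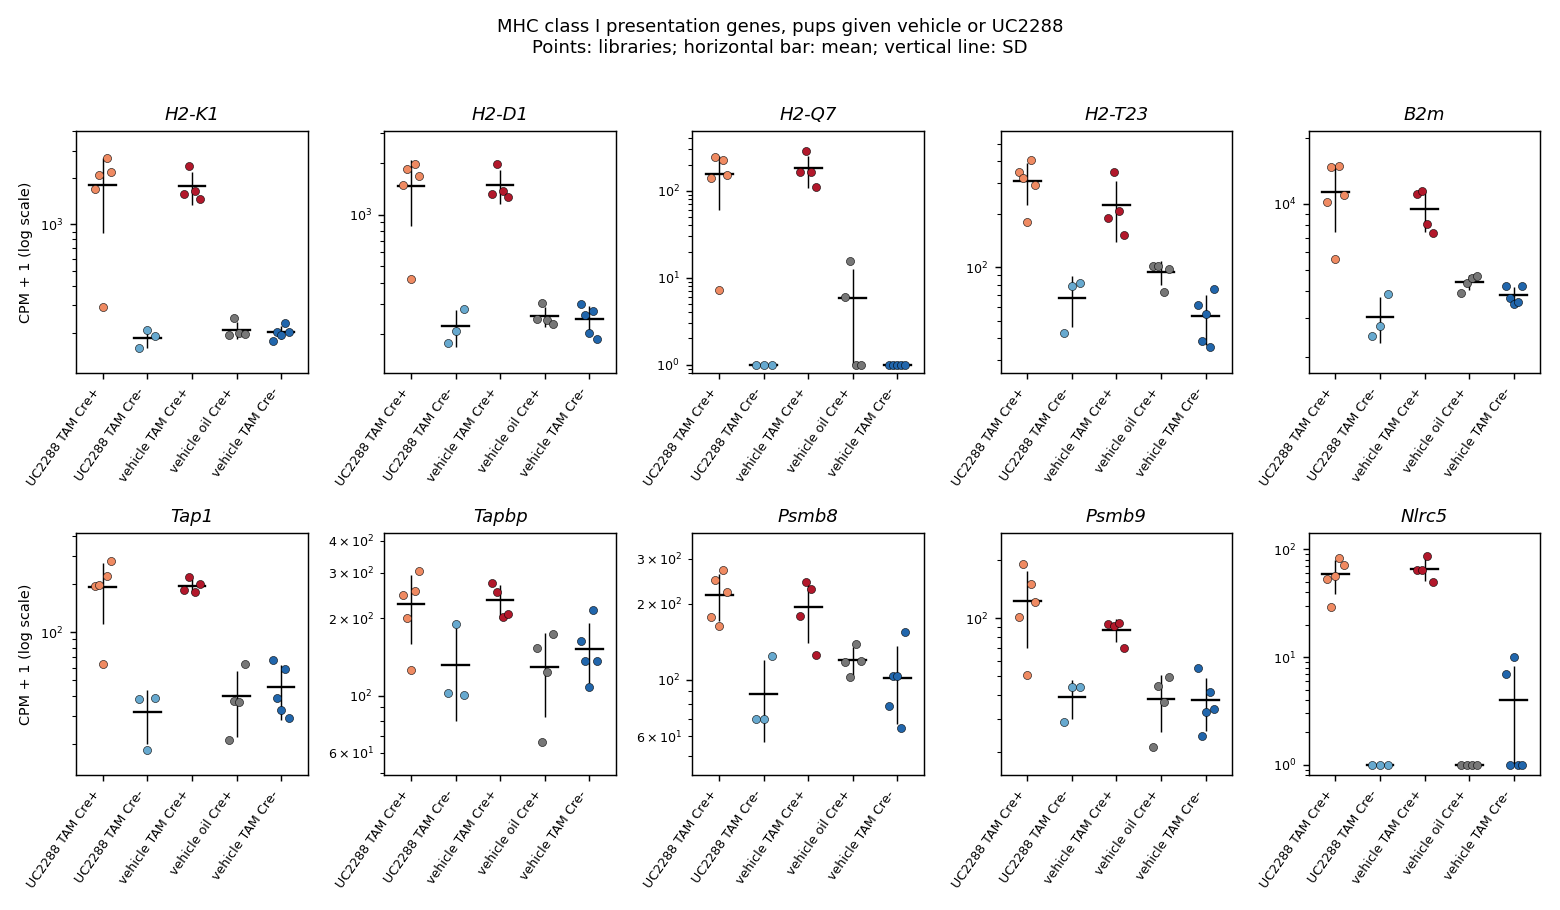
The 10 genes in pups given UC2288 or vehicle, 1 panel per gene. The vertical axis is CPM + 1 on a log scale, points are libraries, horizontal bars means and vertical lines SD, for UC2288 Cre+ (n = 5), UC2288 Cre- (n = 3), vehicle Cre+ with tamoxifen (n = 4), vehicle Cre+ with oil (n = 4) and vehicle Cre- (n = 5). The means of the Cre+ tamoxifen groups stand above the others for H2-K1, H2-D1, H2-Q7 and Nlrc5. UC2288 Cre+ replicate 3 is nearest to those others for H2-K1 and H2-D1, and lies within the range of vehicle Cre+ oil for H2-Q7.

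UC2288 was given to pups to inhibit CDKN1A during the response to Cre and tamoxifen. Under UC2288, as under vehicle, class I genes were higher with Cre, and 0 members were called between UC2288 and vehicle. With UC2288 and tamoxifen, 9 of 10 members were called higher in Cre+ than in Cre- libraries, where 3.51% of genes were called higher, and Tapbp missed the threshold. Here too, the calls of H2-Q7, Nlrc5 and Psmb9 are no separate support. The others called were H2-K1, H2-D1, B2m, Tap1, H2-T23 and Psmb8.

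H2-K1 measured 1689, 2085, 293, 2679.7 and 2197 CPM in the 5 UC2288 Cre+ libraries, against 157, 207 and 189.6 CPM in the 3 UC2288 Cre- libraries. Replicate 3 of the Cre+ group was much lower than the other 4, though still above all Cre- libraries (3.29 ± 0.38, adjusted p = 1.15e-07). H2-D1 measured 1489, 1833, 418, 1969 and 1676 CPM in Cre+ and 175, 207 and 279.7 CPM in Cre- libraries (2.72 ± 0.33, 1.65e-07). B2m measured 10178, 14759.6, 5609, 14836 and 10952 CPM in Cre+ and 2499, 2765 and 3864 CPM in Cre- libraries (1.88 ± 0.26, 1.89e-06). All 3 surface components separated the groups without overlap, and the share of all genes that do so was not counted.

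H2-Q7 measured 140.1, 247, 6.24, 225 and 152 CPM in Cre+ libraries and 0 in all 3 Cre- libraries, at least 28.3-fold higher when 3 counts over the Cre- group are assumed. Nlrc5 measured 52.0, 27.9, 56.2, 82.3 and 69.8 CPM in Cre+ libraries and 0 in Cre- libraries, at least 9.89-fold higher. In replicate 3, H2-Q7 was near the floor while Nlrc5 was within the range of the other Cre+ libraries. Tap1 averaged 191 ± 79.8 CPM in Cre+ and 30.7 ± 11.7 CPM in Cre- libraries (2.51 ± 0.39, adjusted p = 1.79e-05). H2-T23 averaged 308 ± 82.4 CPM in Cre+ and 66.5 ± 21.7 CPM in Cre- libraries (2.23 ± 0.32, adjusted p = 4.00e-06). Both also rose under vehicle.

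Psmb8 averaged 215 ± 45.6 CPM in Cre+ and 87.1 ± 31.3 CPM in Cre- libraries (1.25 ± 0.30, adjusted p = 0.00913). Psmb9 averaged 122 ± 52.9 CPM in Cre+ and 37.8 ± 8.78 CPM in Cre- libraries (1.71 ± 0.38, 0.0032). Its call is no separate support, since the gene passed the low-count filter only through Cre+ tamoxifen groups. Without Cre- replicate 1, the library with neutrophil markers, the calls of both subunits were lost (adjusted p = 0.131 and 0.0649), and 7 of 10 members were called. Psmb8 was also lost without Cre- replicate 2 (0.0779). Tapbp averaged 226 ± 67.6 CPM in Cre+ and 130.2 ± 51.4 CPM in Cre- libraries (0.86 ± 0.28, adjusted p = 0.0876).

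Under UC2288, microglia markers summed to 8265 to 17888 CPM in Cre+ and 15142 to 18185 CPM in Cre- libraries, and of the 10, Aif1 was called higher and Cx3cr1 lower. Cre carriers have 1 intact copy of Cx3cr1. Monocyte markers summed to 93.6 to 298 CPM in Cre+ and 8.61 to 69.2 CPM in Cre- libraries, and Plac8, the 1 of 6 tested, was called higher, with 160 counts in Cre+ and 2 in Cre- libraries. Plac8 passed the low-count filter only through Cre+ tamoxifen groups, so that call is no separate support. Ly6c2 was at 0 in every Cre+ library. Border macrophage markers summed to 120.1 to 293 CPM in Cre+ and 304 to 574 CPM in Cre- libraries, and Mrc1, the 1 of 8 tested, was lower (-1.80 ± 0.31). Their part in the class I differences was not tested.

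UC2288 Cre+ replicate 3 had 1803 CPM of Cx3cr1, against 651 to 917 CPM in the other 4 libraries, border macrophage markers at 293 CPM, against 120 to 140 CPM, and monocyte markers at 93.6 CPM, against 144 to 298 CPM. Without it, 10 of 10 members were called higher in UC2288 Cre+ than in Cre- libraries. H2-K1 then differed by 3.55 ± 0.24, H2-D1 by 2.95 ± 0.24 and Tapbp by 0.99 ± 0.27 (adjusted p = 0.0215). Whether this library holds the cells its label names was not tested.

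Between UC2288 and vehicle, both with Cre and tamoxifen, 0 of 10 members were called, where 0.727% of genes were. H2-K1 averaged 1789 ± 907 CPM with UC2288 and 1763 ± 420.3 CPM with vehicle, and the interval of its log2 fold change, -0.48 to 0.67, covers changes in both directions. H2-D1 differed by 0.07 ± 0.25, Tap1 by 0.04 ± 0.26, Tapbp by 0.01 ± 0.23, Nlrc5 by -0.17 ± 0.41 and H2-Q7 by -0.15 ± 0.38. H2-T23, at 308 ± 82.4 CPM with UC2288 and 224 ± 85.1 CPM with vehicle, was the 1 member with an unadjusted p below 0.05 (0.53 ± 0.24, adjusted p = 0.254). DESeq2 and limma-voom called 0 members. Leaving out UC2288 Cre+ replicate 3 also gave 0, with H2-K1 at 0.36 ± 0.18 and H2-T23 at 0.65 ± 0.23.

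Without Cre, UC2288 and vehicle libraries also differed in 0 of 10 members, where 0.0202% of genes were called, and 0 had an unadjusted p below 0.05. H2-Q7 is among the 10 but had 0 counts in both groups, so it could not be called. Nlrc5, with 0 counts under UC2288 and 3 under vehicle, was too low for a call to be likely. DESeq2 and limma-voom called 0 as well. B2m averaged 3043 ± 723 CPM with UC2288 and 3831 ± 343 CPM with vehicle (-0.43 ± 0.24). The test of whether UC2288 acted differently with and without Cre called 0 of 10 members, where 1.94% of genes were called, and H2-Q7 could not be judged there for the same reason. B2m came nearest, with a difference of 0.77 ± 0.33 (unadjusted p = 0.0253, adjusted p = 0.168), and it passed only without UC2288 Cre- replicate 3 (1.08 ± 0.33, 0.0328).

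**Figure D4:**
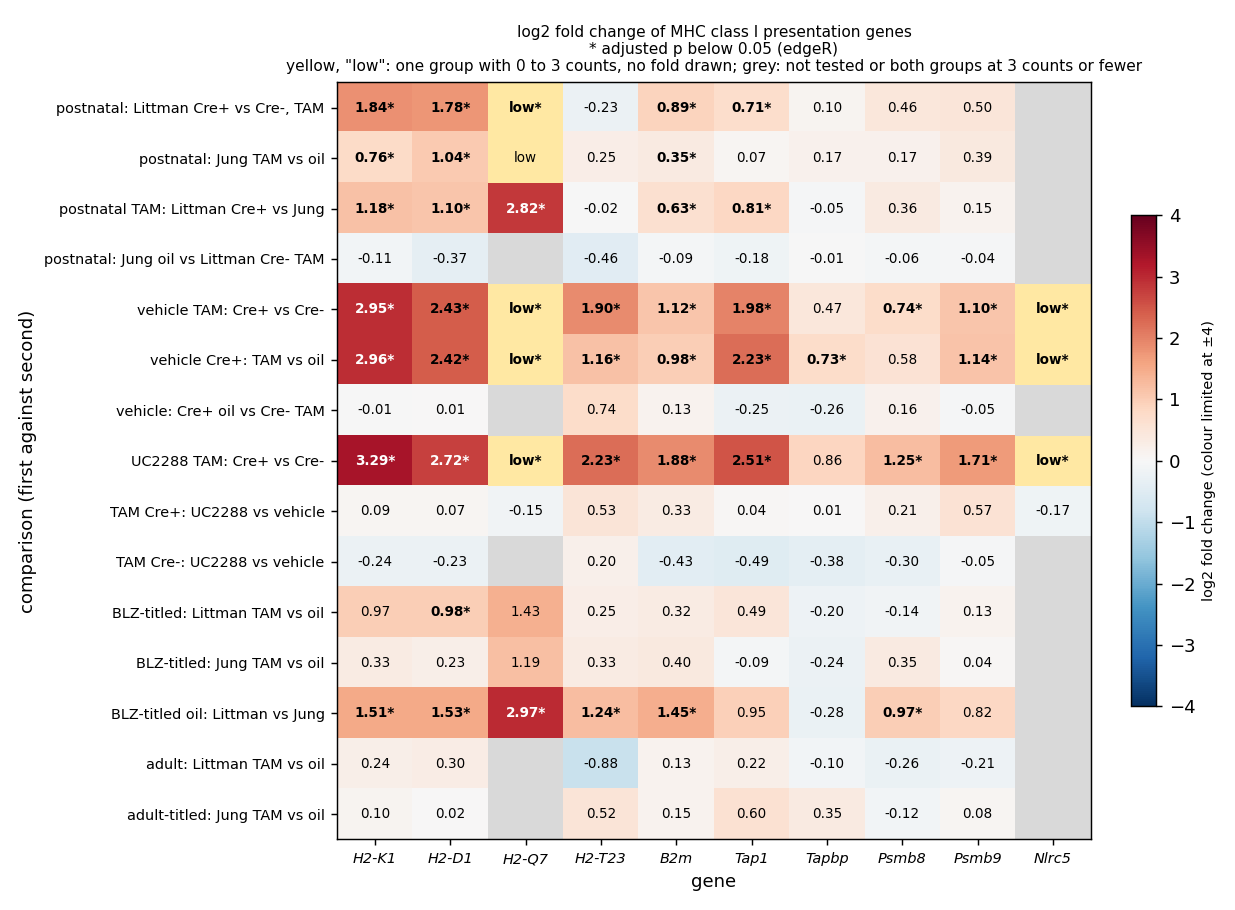
Log2 fold changes of the 10 genes in 15 comparisons of 2 groups, with the group named first over the other. Colour runs from blue for lower to red for higher, asterisks mark adjusted p below 0.05, yellow cells have 0 to 3 counts in 1 group, and grey cells were not tested or had 3 counts or fewer in both groups. Calls number 9 of 10 in each of the vehicle and UC2288 rows of Cre+ against Cre- or oil and 5 of 9 tested in postnatal Littman Cre+ against Cre-. Because of the low-count filter, calls of H2-Q7 are no separate support, nor are those of Nlrc5 and Psmb9 in the vehicle and UC2288 rows. Called fold changes reach 2.95 to 3.29 for H2-K1 in the vehicle and UC2288 pups, and are missing from both adult rows.

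In the BLZ-titled table, Littman microglia were high in class I transcripts already with oil, and tamoxifen added to the classical heavy chains with little certainty. H2-D1 was the only member called between tamoxifen and oil, 1 of 9 tested, where 0.0581% of 5163 genes were called higher. It measured 3707, 3748, 2800.0 and 3701 CPM in the 4 tamoxifen libraries, against 1794, 1979.8 and 1380.5 CPM in the 3 oil libraries (0.98 ± 0.19, adjusted p = 0.0257). H2-K1 measured 3363, 3350.2, 2284 and 2807 CPM with tamoxifen and 1549, 1766 and 1071 CPM with oil, also without overlap, and fell just short of the threshold (0.97 ± 0.20, adjusted p = 0.0509). H2-Q7 measured 365, 389.7, 218 and 185 CPM with tamoxifen and 133, 122 and 57.5 CPM with oil (1.43 ± 0.30, 0.0509). All 3 heavy chains therefore stood at the edge of the call.

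The H2-D1 call was lost without oil replicate 1, 2 or 3 (adjusted p = 0.145, 0.123 and 0.668) or tamoxifen replicate 2 (0.205), with sex as a covariate (0.128), and without the libraries holding neutrophil markers (0.515). H2-K1 and H2-Q7 were called without tamoxifen replicate 3 (adjusted p = 0.0118 and 0.0194) or replicate 4 (0.0465 and 0.0316). Microglia markers summed to 10059.7 to 17236 CPM with tamoxifen and 17057 to 18198 CPM with oil, with 0 of 10 called. Astrocyte, oligodendrocyte and neuron markers summed to 258 to 389.7 CPM with tamoxifen and 168 to 240.4 CPM with oil, without overlap, with 0 of 2 tested called and Gfap at 0 in both groups. Monocyte markers summed to 16.9 to 116 CPM with tamoxifen and 47.2 to 150.4 CPM with oil. The part of these markers was not tested. By Xist and Y-linked counts the tamoxifen group held 3 females and 1 male, against 0 females and 3 males in the oil group. B2m averaged 17528 ± 2112 CPM with tamoxifen and 13706 ± 2031 CPM with oil (0.32 ± 0.22, adjusted p = 0.803). Tap1, Tapbp, H2-T23, Psmb8 and Psmb9 changed by -0.20 to 0.49 on the log2 scale and did not pass. Nlrc5 was not tested, with 17.6 to 51.5 CPM with tamoxifen and 8.58 to 43.7 CPM with oil.

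BLZ-titled Jung libraries showed no called member between tamoxifen and oil, where 0% of genes were called. H2-K1 measured 772, 626, 862 and 672 CPM with tamoxifen and 617, 556, 514 and 723 CPM with oil (0.33 ± 0.20, adjusted p = 0.886). H2-D1 averaged 798 ± 81.5 CPM with tamoxifen and 699 ± 46.4 CPM with oil, and its interval was -0.14 to 0.60. H2-Q7 was the 1 member with an unadjusted p below 0.05 (0.0412), and DESeq2 and limma-voom called 0. The test of a different tamoxifen change in the 2 lines also called 0 members and 0% of genes. H2-D1 differed by 0.75 ± 0.26 and H2-K1 by 0.65 ± 0.28, with unadjusted p of 0.00759 and 0.0292 and adjusted p of 0.473 and 0.569. DESeq2 and limma-voom called 0 members in that test too.

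The larger contrast in this table was between the lines with oil. Littman oil libraries were higher than Jung oil libraries in 6 of 9 members tested, where 6.72% of genes were called higher. H2-K1 differed by 1.51 ± 0.21 (adjusted p = 7.54e-06), H2-D1 by 1.53 ± 0.19 (1.82e-06), B2m by 1.45 ± 0.22 (3.22e-05) and H2-Q7 by 2.97 ± 0.47 (5.69e-05). No Jung oil library reached any Littman oil library for these genes, and the share of all genes that separate likewise was not counted. H2-Q7 passed the low-count filter only through Littman libraries, so its call among the 6 is no separate support. B2m measured 14357, 15331 and 11429 CPM in Littman and 7452, 4962, 6743 and 4060.2 CPM in Jung oil libraries.

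H2-T23, the Qa-1 chain, measured 485, 586 and 473 CPM in Littman oil and 338, 223, 309 and 141 CPM in Jung oil libraries (1.24 ± 0.26, adjusted p = 0.00127). Psmb8 measured 266, 293 and 248 CPM in Littman oil and 195, 125, 215 and 105 CPM in Jung oil libraries (0.97 ± 0.28, 0.0215). The Psmb8 call was lost on leaving out any Littman oil library or Jung oil replicate 2 or 4, with adjusted p from 0.0543 to 0.107, and with library totals in place of TMM (0.0628). That scaling shifts the median of all genes by -0.26, and the other 5 members were called under it too. Tap1 and Psmb9 missed the threshold (0.0906 and 0.076), Tapbp differed by -0.28 ± 0.21, and Nlrc5 had 8.58, 43.7 and 35.4 CPM in Littman oil and 5.28, 0, 0 and 10.5 CPM in Jung oil libraries. The line, Rosa26YFP and the treatment label cannot be told apart here. By sex, Littman oil held 0 females and 3 males, and Jung oil 1 female and 3 males, and with sex as a covariate 6 of 9 members were called. Monocyte markers summed to 47.2 to 150.4 CPM in Littman oil and 5.28 to 15.7 CPM in Jung oil libraries, microglia markers to 17057 to 18198 CPM in Littman oil and 20169.8 to 23015 CPM in Jung oil libraries, and astrocyte, oligodendrocyte and neuron markers to 168 to 240.4 CPM in Littman oil and 262 to 388 CPM in Jung oil libraries. Their part was not tested.

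In the adult tables, tamoxifen was not followed by a called change in any member, in either line. The tables held 8 tested members each, because H2-Q7 and Nlrc5 were too low, and 0.0181% of 5512 genes were called in Littman and 0% of 5111 genes in Jung mice. In Littman mice H2-K1 measured 414, 444 and 434 CPM with tamoxifen and 349, 374, 402 and 376 CPM with oil. The 3 tamoxifen libraries lay above the 4 oil libraries, and the log2 fold change was 0.24 ± 0.17 (interval -0.12 to 0.59, adjusted p = 0.998). H2-D1 averaged 377 ± 83.9 CPM with tamoxifen and 312 ± 109 CPM with oil (interval -0.25 to 0.86), and B2m averaged 4494 ± 509 CPM with tamoxifen and 4191 ± 784 CPM with oil (interval -0.26 to 0.53). These intervals include 0, and their upper ends lie below the vehicle-pup log2 fold changes given above. For B2m, however, the vehicle-pup interval against oil, 0.51 to 1.46, overlaps the adult one. Pups and adults were not compared in a test. H2-T23 was the 1 member with an unadjusted p below 0.05, at 36.1, 35.9 and 66.1 CPM with tamoxifen and 122, 98.1, 27.7 and 102 CPM with oil (-0.88 ± 0.41, adjusted p = 0.998).

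In adult-titled Jung mice H2-K1 measured 308, 333, 262 and 405 CPM with tamoxifen and 276, 299.6, 298 and 368 CPM with oil, with overlapping groups (interval -0.29 to 0.49). H2-D1 averaged 304 ± 77.4 CPM with tamoxifen and 305 ± 101 CPM with oil (interval -0.48 to 0.52), and B2m averaged 3857 ± 834 CPM with tamoxifen and 3565 ± 849 CPM with oil (interval -0.29 to 0.58). No member had an unadjusted p below 0.05, and Tap1 had the lowest, 0.0937 (0.60 ± 0.34). DESeq2 and limma-voom called 0 members in either line. H2-Q7 measured 0 to 17.2 CPM with tamoxifen and 3.39 to 12.8 CPM with oil in Littman, and 0 to 6.56 CPM with tamoxifen and 0 to 7.30 CPM with oil in Jung mice.

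**Figure D5:**
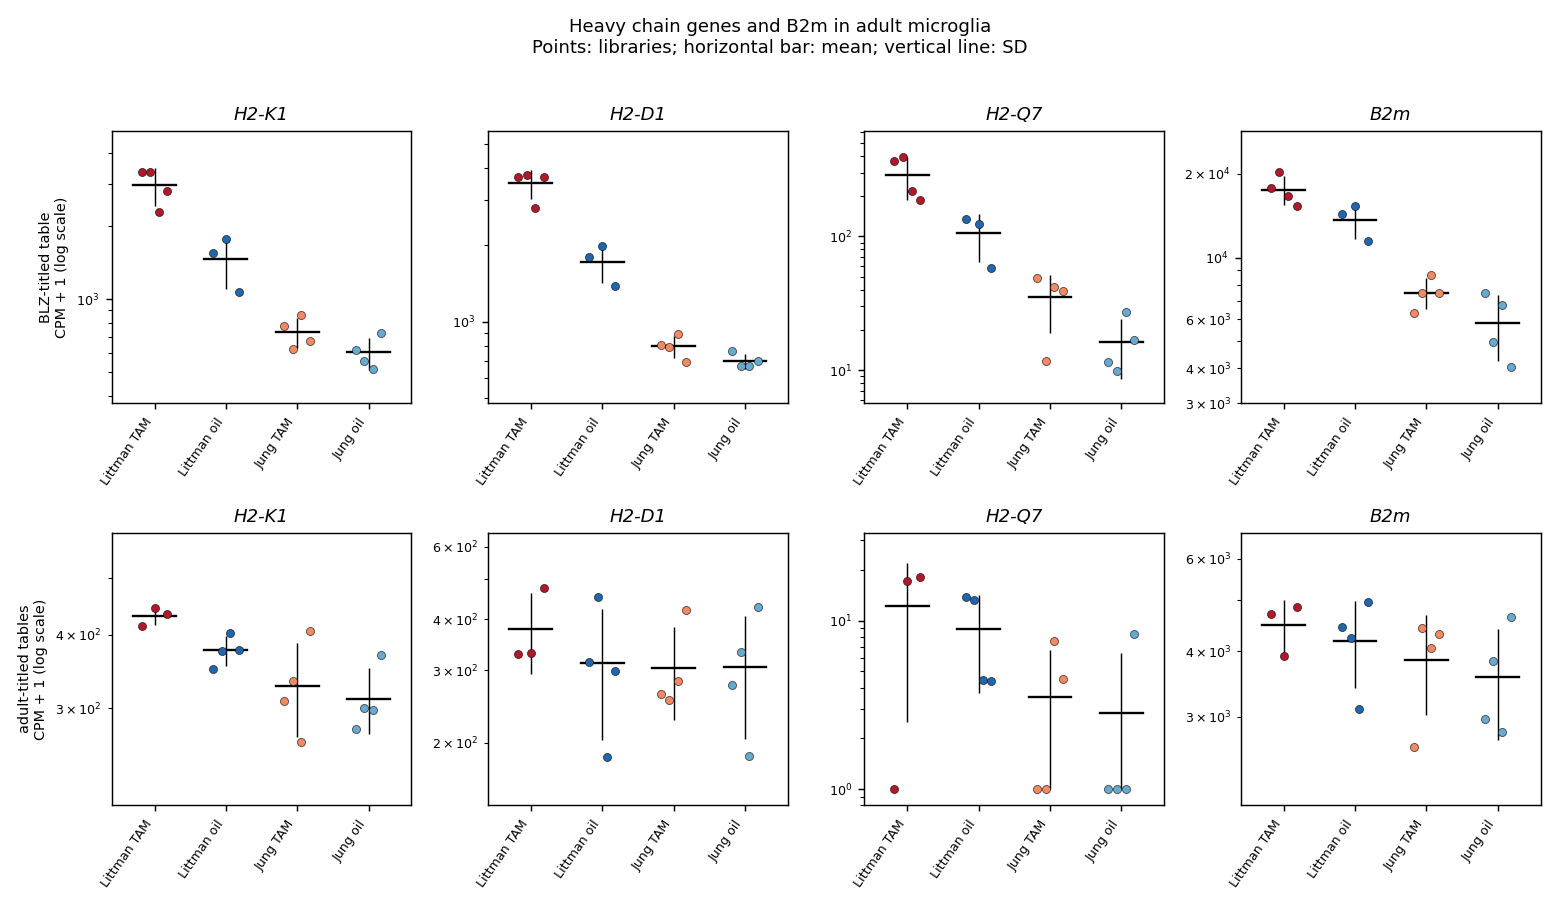
H2-K1, H2-D1, H2-Q7 and B2m in adult microglia, with the BLZ-titled table above and the adult-titled tables below. The vertical axis is CPM + 1 on a log scale, points are libraries, horizontal bars means and vertical lines SD, for Littman tamoxifen, Littman oil, Jung tamoxifen and Jung oil. In the BLZ-titled table the Littman groups lie above the Jung groups, and in the adult-titled tables the tamoxifen and oil groups of each line overlap for H2-D1, H2-Q7 and B2m.

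To keep tags counted to the wrong near-copy from moving the result, counts of the class I heavy chain genes were summed in each library, over those of a list of 22 that its table holds. These were 15 genes in the postnatal and in the vehicle and UC2288 table, 14 in the BLZ-titled and adult Littman tables and 12 in the adult Jung table, so sums are compared within a table. The sum averaged 2403 CPM in postnatal Littman Cre+ and 813 CPM in Cre- libraries (2.96-fold), and 1213 CPM in Jung tamoxifen and 686 CPM in Jung oil libraries (1.77-fold). With vehicle it averaged 3932 CPM with Cre and tamoxifen, 631 CPM with Cre and oil, and 539 CPM without Cre, 6.23-fold and 7.30-fold. With UC2288 it was 3978 CPM in Cre+ and 525 CPM in Cre- libraries (7.58-fold). BLZ-titled Littman libraries averaged 7727 CPM with tamoxifen and 4030 CPM with oil (1.92-fold), and Jung libraries 2032 CPM with tamoxifen and 1716 CPM with oil (1.18-fold). Adult sums were 971 CPM with tamoxifen and 890 CPM with oil in Littman mice, and 854 CPM with tamoxifen and 809 CPM with oil in Jung mice. H2-K1 and H2-D1 together made up 73.1% to 87.4% of the sum in every group, so the summed level follows these 2 genes.

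Ordered within each table by H2-K1, the levels of the postnatal groups were Littman Cre+ (1029 ± 99.2 CPM), Jung tamoxifen (471 ± 93.2 CPM), Cre- (296 ± 38.1 CPM) and Jung oil (277 ± 37.3 CPM). The last pair did not differ beyond their spread. In the vehicle and UC2288 table UC2288 Cre+ (1789 ± 907 CPM) and vehicle Cre+ tamoxifen (1763 ± 420.3 CPM) were not separated, and neither were vehicle Cre+ oil (208 ± 25.9 CPM), vehicle Cre- (199.8 ± 20.4 CPM) and UC2288 Cre- (184 ± 25.4 CPM). In the BLZ-titled table the order was Littman tamoxifen (2951 ± 515 CPM), Littman oil (1462 ± 356 CPM), Jung tamoxifen (733 ± 106 CPM) and Jung oil (603 ± 90.8 CPM), of which the Jung pair overlapped.

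The median log2 fold change of the members tested was 0.71 in postnatal Littman Cre+ against Cre-, 0.35 in Jung tamoxifen against oil, 1.94 in vehicle Cre+ against Cre-, 1.69 in Cre+ tamoxifen against oil, 2.37 under UC2288 and 1.24 between BLZ-titled oil groups. Over all tested genes the median was between -0.05 and 0.01 in each of these. It was 0.01 for the members in adult Littman and 0.12 in adult-titled Jung mice. In the pup and BLZ-titled comparisons the medians include members that passed the low-count filter only through groups where they were high.

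Other genes of the pathway were read from the same fits, as lists of 20 other heavy chains, 18 peptide-supply and loading genes, 11 regulators and 9 class II genes. Few of the other heavy chains were high enough to test. H2-M3, which presents formylated peptides, rose in postnatal Cre+ against Cre- (1.48 ± 0.21, adjusted p = 9.74e-07), where 1 of 4 tested was called. It averaged 92.4 ± 18.9 CPM in Cre+ and 34.1 ± 2.37 CPM in Cre- libraries. In vehicle Cre+ against Cre-, 4 of 4 were called, H2-M3 (2.14 ± 0.40), H2-T22 (2.47 ± 0.56), H2-T24 (1.81 ± 0.64) and H2-Q6, which had 50 counts in Cre+ and 2 in Cre- libraries. H2-Q6 shares 29.76% of its end windows with other genes, H2-Q7 foremost, and H2-T22 shares 33.89% with H2-T10. Against oil, 2 of 4 were called, H2-M3 (1.45 ± 0.40) and H2-Q6, which had 0 counts with oil. Under UC2288, 1 of 4 was called, H2-M3 (2.21 ± 0.48), and 1 of 2 between BLZ-titled oil groups, H2-Q6 (2.28 ± 0.68). With vehicle and tamoxifen, the 20 listed genes together summed to 214 to 351 CPM in Cre+ and 53.8 to 83.9 CPM in Cre- libraries. Which groups brought a gene past the low-count filter was not checked in the vehicle, UC2288 and BLZ-titled comparisons. Their counts of called heavy chains are therefore no separate support.

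Among peptide-supply and loading genes, 3 of 17 tested were called higher in postnatal Littman Cre+ against Cre-. They were Psme1, a subunit of the PA28 proteasome activator (0.71 ± 0.13), Sec61b of the translocon (0.64 ± 0.15) and the chaperone Calr (0.33 ± 0.09). In vehicle Cre+ against Cre-, 4 of 16 were higher, namely Lnpep, an aminopeptidase (0.99 ± 0.23), the immunoproteasome subunit Psmb10 (0.87 ± 0.29), and Psme2 (0.79 ± 0.22) and Psme1 (0.61 ± 0.21) of PA28. Sec61g was lower (-1.03 ± 0.38). Against oil, 5 of 16 were higher, Lnpep, Psme1, Psme2, Npepps and Hspa5, and 2 lower, Sec61g (-1.24 ± 0.40) and Sec61b (-0.68 ± 0.23). Sec61b was thus higher in postnatal Cre+ than Cre- and lower in vehicle Cre+ with tamoxifen than with oil. Under UC2288, 3 of 16 were higher, Psme2 (1.18 ± 0.27), Psmb10 (1.12 ± 0.34) and Psme1 (0.91 ± 0.25). Between BLZ-titled oil groups 2 of 15 were higher, Psme1 (1.58 ± 0.25) and Sec61b (1.03 ± 0.33).

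Of the regulators, 0 of 8 tested were called in postnatal Cre+ against Cre- and 1 of 5 in vehicle Cre+ against Cre-. The called gene was Irf1, a factor induced by interferon (0.89 ± 0.34, adjusted p = 0.0458). It averaged 71.6 ± 6.03 CPM with Cre and tamoxifen, 41.4 ± 13.7 CPM with Cre and oil, and 33.6 ± 9.75 CPM without Cre, and did not pass against oil (0.64 ± 0.36, 0.168). Under UC2288 it averaged 68.7 ± 26.0 CPM in Cre+ and 31.6 ± 16.1 CPM in Cre- libraries (1.12 ± 0.40, adjusted p = 0.142), where 0 of 5 were called. In postnatal pups it averaged 71.4 ± 14.9 CPM in Littman Cre+ and 52.8 ± 8.60 CPM in Cre- libraries (0.48 ± 0.20, adjusted p = 0.143). The subunits of the SXY-binding RFX and NF-Y complexes that were tested were not called in any comparison.

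Class II genes, which present antigen to helper T cells, mostly did not pass. H2-DMa, a class II peptide editor, was 1 of 3 tested in postnatal Cre+ against Cre- (0.82 ± 0.14) and 1 of 5 between BLZ-titled oil groups (0.75 ± 0.24), and the invariant chain Cd74 was 1 of 3 under UC2288 (1.16 ± 0.34). With vehicle, 0 of 3 were called against Cre- or oil.

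Over the 17 group means of log2 CPM, each centred on its table, the non-member genes whose levels followed H2-K1 most closely were Phf11d (Pearson r = 0.98), Ctsc (0.97), H2-M3 (0.97), Bst2 (0.97) and Lgals3bp (0.97), out of 3885 genes tested in all tables. For H2-D1 they were Ctsc (0.97), H2-M3 (0.97), Phf11d (0.97), Cd52 (0.97) and Lgals3bp (0.96). Among members, H2-K1 and H2-D1 followed each other (0.99), B2m followed H2-D1 (0.96), and Tapbp was least like it (0.46). These are descriptions over means that share libraries and fits.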

How the data were processed

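Sorted mouse microglia were profiled by CEL-Seq2 with a molecular identifier of 10 nt, and each library used 15 of 30 µl of lysate, per the labels' protocols. In 5 tables the authors deposited raw counts, whole numbers of tags for each gene in each library. Tools listed by the submitters' processing notes are featureCounts, HISAT2, Trim Galore and UMI-tools, with the build GRCm38. Versions, the annotation release and whether counting used strand are not stated there. All 10 genes were matched by symbol, and no count column was left out. Groups came from sample titles. Of 113 replicate pairs, 0 held identical values.

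CPM were computed from column totals. Each table was fitted with edgeR 4.0.16 in R 4.3.3 (TMM, filterByExpr by group, 1 quasi-likelihood fit over all groups), so fold changes rest on TMM scaling and printed CPM do not. Values after ± are SD for CPM and SE for log2 fold changes, and intervals are 95%. Statements that groups did not overlap describe the printed values, and such separation was not counted over all genes. Against a group at 0 counts, 3 counts over that group were assumed to give a lower bound, and with 1 to 3 counts it is a ratio of pooled counts with an exact interval. All members are named in each comparison, and of the other lists up to 6 called genes by absolute fold change, while 1 regulator and 1 motif are not reported here. The members, lists and tests were chosen with earlier results of these data known. Alternatives were DESeq2 1.42.0, limma-voom (limma 3.58.1), library totals, no filter, the compared groups alone, sex, a replicate block, leaving out each library, and, added after seeing the data, leaving out 4 libraries with neutrophil markers. Motifs were searched in RefSeq upstream windows (GRCm38.p6). The fitting script was tested on simulated data.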

Additional observations from a re-analysis of the deposited data

Results flagged for a closer look

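In groups of 4 or 5 libraries, 8 of 127 combinations of member and group had a library set apart from the rest by a gap larger than Dixon's 95% critical value. Chance alone sets about 1 in 20 apart. Tapbp was 328 CPM in postnatal Jung tamoxifen replicate 2, with at most 259 CPM in the other 3 libraries. H2-Q7 was 2.56 CPM, a single count, in postnatal Cre- replicate 3 and 0 in the others. H2-D1 was 2800 CPM in BLZ-titled Littman tamoxifen replicate 3, below the 3701 to 3748 CPM of the others. In vehicle Cre+ libraries with tamoxifen, H2-D1 was 1981 CPM in replicate 2, above 1262 to 1379 CPM, and Psmb9 was 68.9 CPM in replicate 4, below 90.0 to 93.6 CPM. In vehicle Cre+ libraries with oil, H2-K1 was 246 CPM in replicate 2, above 192 to 199 CPM, and H2-T23 was 71.4 CPM in replicate 3, below 97.0 to 101 CPM. Tap1 was 54.2 CPM in adult Littman oil replicate 4, above 34.7 to 36.8 CPM.

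In pups, 3 members changed by different amounts in the Littman contrast (Cre+ against Cre-) and the Jung contrast (tamoxifen against oil), by a test of the difference itself in edgeR. The difference was 1.07 for H2-K1, 0.74 for H2-D1 and 0.54 for B2m on the log2 scale, each larger in the Littman contrast.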

How the results depend on the processing

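Of 59 combinations of member and comparison that were called in at least 1 setting, 1004 alternative fits gave 937 unchanged calls, 43 lost calls, 24 gained calls and 0 reversals. The postnatal Littman, vehicle and UC2288 counts of members called stayed within 1.5 times under every alternative run. Leaving out 1 library gave 4 to 6 in postnatal Littman Cre+ against Cre- (5), 2 to 3 in Jung tamoxifen against oil (3), 2 to 3 in their difference (3), 5 to 7 between BLZ-titled oil groups (6), 8 to 9 in each vehicle comparison (9) and 7 to 10 under UC2288 (9). In BLZ-titled Littman tamoxifen against oil, 1 member was called, and 2 with DESeq2, 2 with limma-voom, 3 with library totals, 3 without the filter, 3 with the compared groups alone, 0 with sex as a covariate, 0 without the libraries holding neutrophil markers, 0 with the replicate block, and 0 to 3 when 1 library was left out. For the UC2288 by Cre difference, leaving out 1 library gave 0 to 1. B2m in postnatal Jung pups was also lost without the filter (adjusted p = 0.0812), as were Psmb8 in vehicle Cre+ against Cre- (0.0764) and Tapbp in vehicle tamoxifen against oil (0.0734). The cause was not tested. The summed heavy chains of BLZ-titled Littman oil against Jung oil differed by 1.23 (log2) with library totals and by 1.49 with TMM-scaled totals.

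Replicate numbers were not treated as pairs in the main fit. Deviations of same-numbered libraries correlated between -0.359 and 0.344, with 0 of 15 comparisons above 0.1 in every pair. In adult-titled Jung mice the pairs gave 0.341, 0.158, -0.161 and 0.248. With so few libraries per group these values cannot exclude pairing. With the replicate block, between BLZ-titled oil groups, Tap1 was called (adjusted p = 0.0263) and Psmb8 was not (0.0504).

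Counts over all genes moved more than members. In postnatal Jung pups 6 genes were called (2 to 15 over all alternatives), in BLZ-titled Littman 3 (1 to 44), between UC2288 and vehicle in Cre+ 36 (1 to 266), in the UC2288 by Cre difference 96 (1 to 533), in UC2288 against vehicle without Cre 1 (0 to 45), under UC2288 198 (111 to 274), between BLZ-titled oil groups 471 (268 to 662), between the postnatal lines 477 (296 to 569), in the postnatal difference 25 (22 to 76), between the postnatal baselines 56 (33 to 145), between the vehicle baselines 0 (0 to 15), in the BLZ-titled difference 0 (0 to 10), in adult Littman 1 (0 to 10) and in adult-titled Jung mice 0 (0 to 6). Library totals in place of TMM gave 261 higher and 297 lower, against 323 and 229, in postnatal Littman Cre+ against Cre-, 219 and 269, against 270 and 207, between the lines, 17 and 13, against 18 and 7, in the postnatal difference, 1027 and 393, against 710 and 637, in vehicle Cre+ against Cre-, 992 and 565, against 799 and 757, in vehicle tamoxifen against oil, 245 and 417, against 347 and 124, between BLZ-titled oil groups, and 21 and 96, against 47 and 49, in the UC2288 by Cre difference. Depth limits H2-Q7 and Nlrc5 most, since groups without Cre held 0 to 3 counts of them. So did the Cre-carrying vehicle oil and postnatal Jung oil groups.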
